A study of Homo sapiens with 12 samples.

Results

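The m6A writer complex and the m6A erasers were followed as 10 genes in HEK-293T, an established line from human embryonic kidney with the SV40 large T antigen. They were taken by name: METTL3, METTL14, WTAP, VIRMA, RBM15, RBM15B, ZC3H13 and CBLL1 for the writer, and FTO and ALKBH5 for the erasers. These are 10 of 58288 genes in the deposited tables, and 81 of the 200401 transcript models there belong to them. All 10 genes passed the filter on low counts and were tested. None of the 10 was called in any of the 5 comparisons of the design, and none of their transcript models was.

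N6-methyladenosine (m6A) is a methyl mark placed inside mRNAs while they are made. METTL3 carries the methyltransferase activity and works as a pair with METTL14, while WTAP, VIRMA, ZC3H13, CBLL1 and RBM15 or RBM15B bind this pair and bring it to nuclear speckles and to its target RNAs. FTO and ALKBH5 are dioxygenases that take methyl groups off RNA, and reader proteins such as YTHDF2 bind the mark and hand the mRNA to the machinery that shortens its poly(A) tail.

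The cells held a CIRTS effector, a programmable RNA-binding protein assembled from human protein parts and steered by a guide RNA. In 2 groups the effector was the CIRTS-12 nuclease, with a non-targeting (NT) guide (nuclease-NT) or a guide to SMARCA4 (nuclease-SMARCA4). In the other 2 it was the CIRTS-3 effector with YTHDF2, again with the NT guide (YTHDF2-NT) or the SMARCA4 guide (YTHDF2-SMARCA4). YTHDF2 is an m6A reader, but the sample titles do not say which part of it the effector carries. Each group has 3 libraries of mRNA, called biological replicates in the series' design text. A CIRTS effector and a guide are thus shared by all 4 groups, and untreated cells were not analysed here. The labels give no culture or batch, so the effector cannot be told apart from a batch, nor do they say how the constructs were delivered or which share of the cells took them up. The p-values measure the spread between these libraries. In bulk RNA, a change in a few cells and a smaller change in all of them cannot be told apart.

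Library totals ran from 9207196 to 18047859 estimated counts, and 23001 to 25583 genes had at least 1 count. All 10 marker genes listed for HEK-293T were detected in every library, from PAX2 at a mean of 2.74 CPM (counts scaled to a common library total) to VIM at 692.8 CPM, while PTPRC of blood cells was at 0.00459 CPM and HBB and SERPINA1 had 0 counts. Of the fibroblast genes, COL1A1 was at 10.6 CPM and its partner COL1A2 at 0.0844 CPM. SMARCA4, the target of the guide, had group means of 237.6 (NT) and 236.1 CPM (SMARCA4 guide) with the nuclease and 262.5 and 224.8 CPM with YTHDF2, and was not called. YTHDF2-NT held the least alike libraries: across 11482 genes the deviation of each from the 12-library mean followed the mean length of a gene's transcripts with a Spearman rho of −0.63, 0.61 and −0.32, against −0.34 to 0.44 in the other 9 libraries. Some values that rest on that group, of METTL14, ZC3H13, CBLL1, FTO, MAT2A, METTL5 and HNRNPA2B1, are given with and without its first and second library. The part of these trends in such values was not tested.

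For the catalytic pair and the erasers, the stretches of mRNA that encode their best known motifs are shown because transcript models of these genes differ in whether they hold them. They come from GENCODE release 29 on GRCh38, with the motif codons in capitals. In METTL3 the capitals are the codons of the DPPW motif of the methyltransferase active site (chr14:21500581-21500640, minus strand). In METTL14 they are the codons of the EPPL motif at the matching place (chr4:118697228-118697287, plus strand). In FTO (chr16:53826407-53826463, plus strand) and ALKBH5 (chr17:18184829-18184885, plus strand) they are the HxD codons that supply iron-binding residues of these dioxygenases. Each motif was found once, in frame, in the model with the longest coding sequence.
METTL3: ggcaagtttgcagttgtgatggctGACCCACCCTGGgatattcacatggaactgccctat
METTL14: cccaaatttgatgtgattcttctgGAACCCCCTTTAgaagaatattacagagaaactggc
FTO: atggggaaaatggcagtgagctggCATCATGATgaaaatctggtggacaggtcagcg
ALKBH5: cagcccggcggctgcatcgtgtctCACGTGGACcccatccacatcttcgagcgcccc

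3 pairs of transcript models carried much of the signal of METTL3, WTAP and ALKBH5, and the places where the models of each pair part are shown next, again with the bases that differ in capitals. METTL3-201 and METTL3-208 share the exon that ends at chr14:21500913-21500942 (minus strand). The first goes on at chr14:21500653-21500682 and the second skips to chr14:21499773-21499802, so the DPPW codons are left out.
METTL3-201: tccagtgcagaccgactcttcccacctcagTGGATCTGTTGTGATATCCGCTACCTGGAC
METTL3-208: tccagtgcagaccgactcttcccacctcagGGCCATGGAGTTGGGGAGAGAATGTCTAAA
WTAP-206 splices from chr6:159748340-159748369 to chr6:159753460-159753479 (plus strand), whereas WTAP-201 reads on past the splice site at chr6:159748340-159748389.
WTAP-206: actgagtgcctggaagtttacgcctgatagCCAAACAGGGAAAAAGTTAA
WTAP-201: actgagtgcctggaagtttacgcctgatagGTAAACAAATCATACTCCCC
ALKBH5-201 joins chr17:18195006-18195035 to chr17:18206815-18206844 (plus strand), and ALKBH5-202 starts within the intron and reads straight into the same exon at chr17:18206785-18206844.
ALKBH5-201: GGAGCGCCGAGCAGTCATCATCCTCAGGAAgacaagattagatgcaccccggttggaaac
ALKBH5-202: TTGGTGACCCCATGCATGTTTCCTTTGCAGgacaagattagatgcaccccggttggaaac

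Compared per length, the 10 mRNAs spanned about an order of magnitude. In TPM, which corrects counts for transcript length, summed over all models, WTAP had a mean of 104.4 over the 12 libraries and ALKBH5 99.3, with overlapping ranges (85.2 to 118.0 and 84.9 to 110.7), and WTAP was the higher of them in 8 of 12 libraries. VIRMA followed at 68.9 TPM, below ALKBH5 in 12 of 12 libraries. METTL3 was at 42.3 TPM and FTO at 34.6 TPM, and METTL3 was above FTO in 12 of 12 libraries. ZC3H13 at 24.5 TPM and METTL14 at 21.7 TPM did not separate, since ZC3H13 was higher in 7 of 12. RBM15B at 15.5 TPM and CBLL1 at 13.6 TPM did not separate either (RBM15B higher in 9 of 12), and RBM15 was lowest at 8.42 TPM, below CBLL1 in 12 of 12.

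The members of the catalytic pair were not at equal mRNA levels. METTL3 exceeded METTL14 in every library, with a median ratio of 2.02 and a range from 1.45 to 3.19, both ends of which were in YTHDF2-NT. WTAP exceeded METTL3 by a median of 2.46 (2.04 to 2.86), ALKBH5 exceeded FTO by 2.78 (2.21 to 4.77), and RBM15B exceeded its paralog RBM15 by 1.9 (1.63 to 2.14). The ends of the ALKBH5 to FTO range were again YTHDF2-NT 1 and YTHDF2-NT 2.

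**Figure D1:**
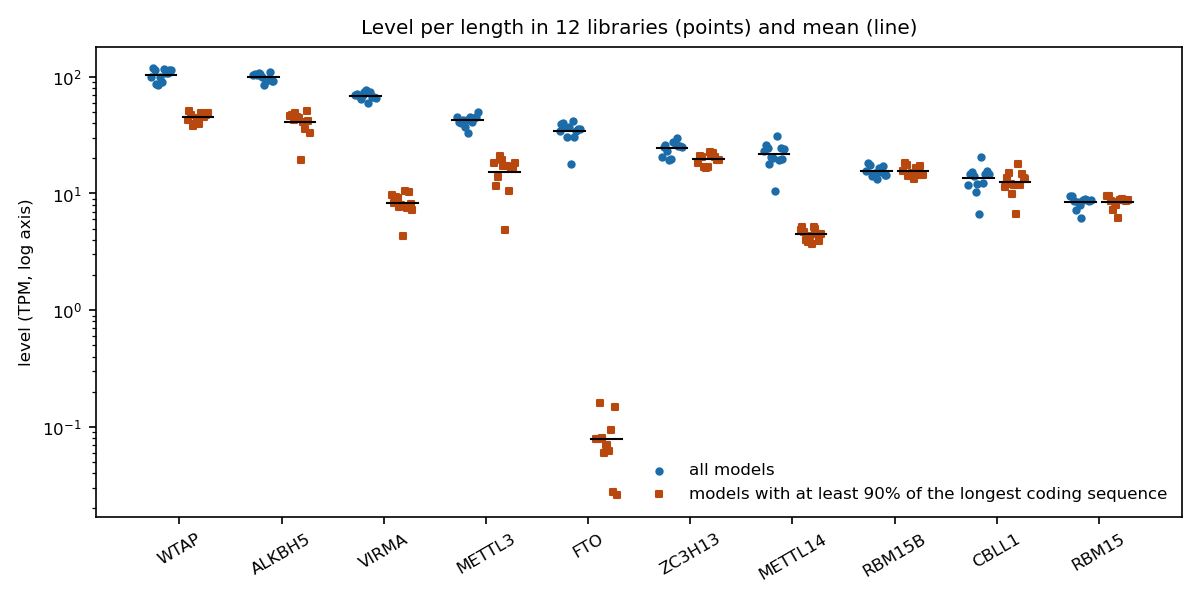
Level of each gene in TPM on a log axis, summed over all transcript models (circles) or over models with at least 90% of the longest coding sequence (squares), 1 point per library (12) and a line at the mean. WTAP and ALKBH5 lead on both scales, and FTO drops from 34.6 to 0.0796 TPM when only its models above this cutoff are summed. FTO models with up to 1443 of 1677 coding bases fall below the cutoff.

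This order depended on which transcript models were counted. When only protein-coding models with at least 90% of the gene's longest coding sequence were summed, a choice made after the data were seen, WTAP (44.9 TPM) and ALKBH5 (41.2 TPM) still led. ZC3H13 (19.6), RBM15B (15.5), METTL3 (15.4) and CBLL1 (12.7) came next, followed by RBM15 (8.42), VIRMA (8.31) and METTL14 (4.45). FTO was last at 0.0796 TPM, with 0.0259 to 0.16 in single libraries. This value depends on the cutoff, since the longest FTO coding sequence has 1677 bases. The protein-coding models FTO-217, FTO-214 and FTO-215, with 1443, 1371 and 1350 coding bases and the HxD codons, fall below it. The METTL3 to METTL14 ratio on this scale had a median of 3.73 (1.3 to 5.29). These levels hang on how kallisto divides reads among models that overlap, and short models gain TPM from few counts: METTL14-201, the only nearly complete METTL14 model, held 20.6% of the gene's TPM but 76.3% of its estimated counts.

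METTL3, the methyltransferase itself (ENSG00000165819.11, chromosome 14, 21498133 to 21511375, minus strand), stood at 65.8, 57.6 and 58.6 CPM for nuclease-NT and at 65.4, 61.1 and 64.8 CPM for nuclease-SMARCA4. In YTHDF2-NT it was at 61.1, 64.2 and 65.5 CPM, and in YTHDF2-SMARCA4 at 62.7, 66.0 and 73.9 CPM. The groups overlapped in every comparison, and YTHDF2-SMARCA4 3 was the highest of the 12 libraries. The log2 fold change of the SMARCA4 over the NT guide was 0.07 (SE 0.0819, adjusted p = 0.795) with the nuclease and 0.09 (SE 0.0812, adjusted p = 0.792) with YTHDF2. The 95% interval of the first ran from −7.06% to 18.7%.

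METTL14, the RNA-binding and non-catalytic partner (ENSG00000145388.14, chromosome 4, 118685368 to 118715433, plus strand), stood at 37.2, 39.3 and 35.6 CPM for nuclease-NT and at 32.6, 33.7 and 34.5 CPM for nuclease-SMARCA4, so that these 2 groups did not overlap. In YTHDF2-NT it was at 34.3, 41.5 and 40.1 CPM and in YTHDF2-SMARCA4 at 35.9, 32.0 and 37.7 CPM, which did overlap. The log2 fold change for the guide was −0.16 (SE 0.0935, adjusted p = 0.572) with the nuclease and −0.13 (SE 0.0927, adjusted p = 0.734) with YTHDF2. The second was −0.21 without YTHDF2-NT 1, −0.07 without YTHDF2-NT 2 and −0.19 without both, and was not called in any of them. Absence of overlap between the nuclease groups was common, at 25.1% of the 16297 genes tested, and 2 of the 10 genes showed it, METTL14 and ALKBH5.

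**Figure D2:**
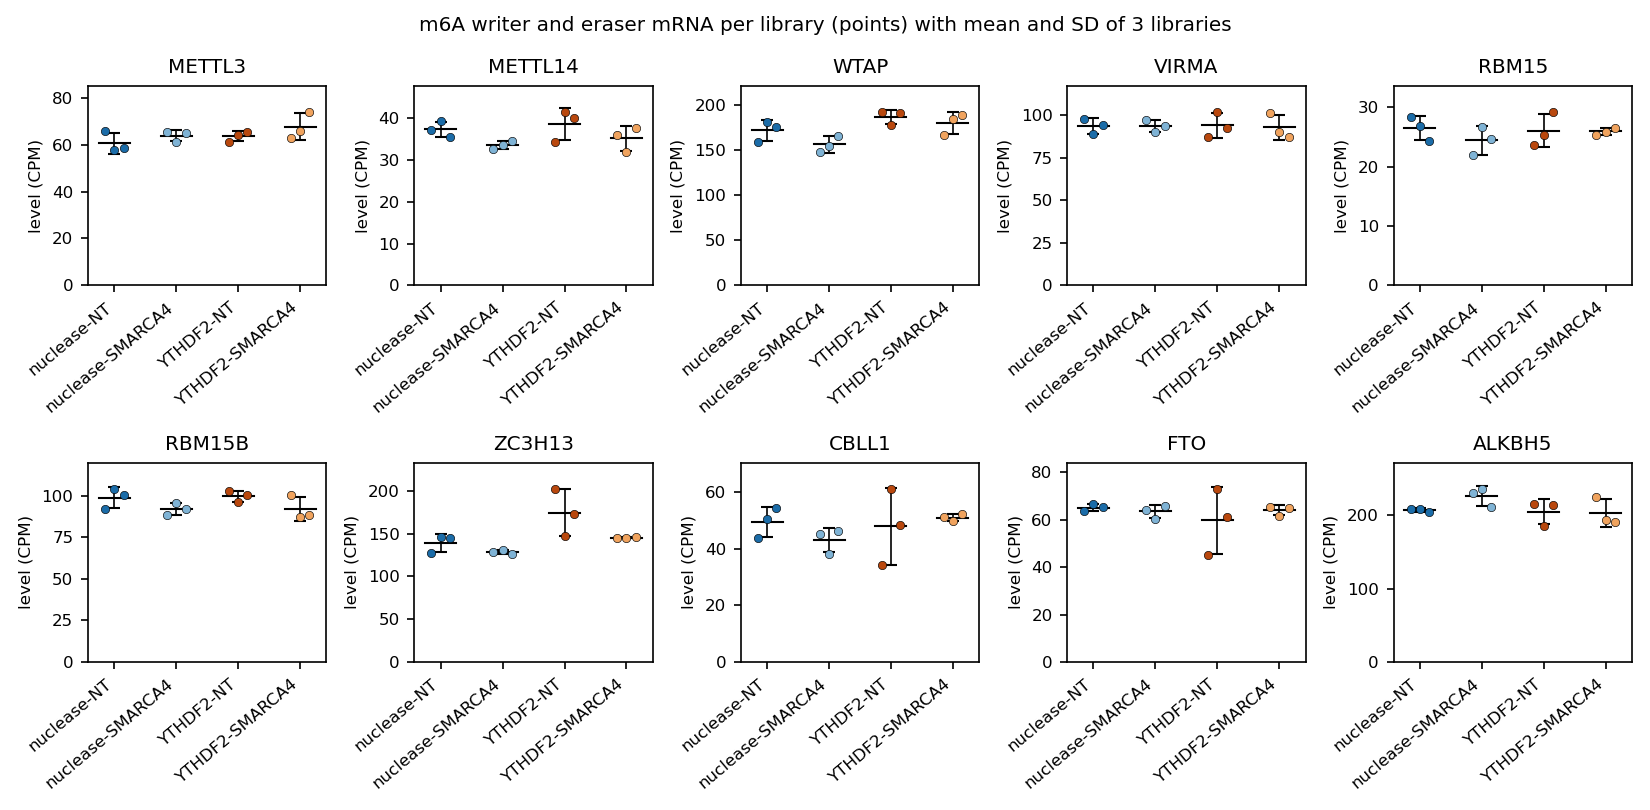
Level of each gene in CPM (linear axes from 0), 1 point per library, with the mean and SD of the 3 libraries of each group. Most genes stay within narrow bands, and relative to the mean the points of YTHDF2-NT are spread most widely for ZC3H13 (147.5 to 202.7 CPM), CBLL1 (34.2 to 61.4 CPM) and FTO (45.0 to 73.2 CPM).

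WTAP, the adaptor that places the METTL3 and METTL14 pair in nuclear speckles (ENSG00000146457.14, chromosome 6, 159725585 to 159756319, plus strand), stood at 158.8, 181.2 and 176.0 CPM for nuclease-NT and at 148.0, 155.1 and 166.2 CPM for nuclease-SMARCA4. It was at 192.5, 178.6 and 190.9 CPM for YTHDF2-NT and at 166.5, 185.1 and 189.2 CPM for YTHDF2-SMARCA4. The lowest YTHDF2-SMARCA4 library stood just above the highest nuclease-SMARCA4 library, and the other comparisons overlapped. With the SMARCA4 guide the log2 fold change of YTHDF2 over the nuclease was 0.21 (SE 0.0769, unadjusted p = 0.019, adjusted p = 0.367), a difference of 15.3% whose interval spans 2.78% to 29.3%. Between the guides it was −0.14 (SE 0.0771, adjusted p = 0.55) with the nuclease and −0.06 (SE 0.0767, adjusted p = 0.862) with YTHDF2.

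VIRMA, the large scaffold of the complex (ENSG00000164944.11, chromosome 8, 94487693 to 94553529, minus strand), varied least of the 10 in CPM summed over all models. Its coefficient of variation over the 12 libraries was 5.43%. In TPM of protein-coding models alone it was 19.3%, above that of WTAP at 11.3%. VIRMA was at 97.9, 88.9 and 93.9 CPM for nuclease-NT, 97.3, 90.3 and 93.7 CPM for nuclease-SMARCA4, 87.3, 101.8 and 92.6 CPM for YTHDF2-NT and 101.2, 90 and 87.2 CPM for YTHDF2-SMARCA4. All groups overlapped. Its fitted change was between −0.02 and 0.01 in all 5 comparisons, and the interval for the guide ran from −11.2% to 13.1% with the nuclease and from −12.4% to 11.4% with YTHDF2.

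ZC3H13, a zinc finger protein that holds the complex in the nucleus (ENSG00000123200.16, chromosome 13, 45954465 to 46052759, minus strand), differed most by the fitted values. It was at 127.2, 145.6 and 144.7 CPM for nuclease-NT and at 129.0, 131.3 and 126.4 CPM for nuclease-SMARCA4. In YTHDF2-NT it was at 202.7, 147.5 and 172.6 CPM, all above every other library of the study, and in YTHDF2-SMARCA4 at 145.1, 144.4 and 145.5 CPM. With the NT guide its log2 fold change for YTHDF2 over the nuclease was 0.32 (SE 0.0976, unadjusted p = 0.00532, adjusted p = 0.291), a difference of 25.2% whose interval spans 8.25% to 44.9%. For the SMARCA4 over the NT guide in YTHDF2 cells it was −0.27 (SE 0.0972, unadjusted p = 0.017, adjusted p = 0.703). These 2 comparisons share the YTHDF2-NT libraries. With the SMARCA4 guide, ZC3H13 was at 0.17 (SE 0.0976, adjusted p = 0.527) for YTHDF2 over the nuclease, again without overlap.

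The size of the ZC3H13 values rested on single libraries of YTHDF2-NT. Without YTHDF2-NT 1 they were 0.20 (adjusted p = 0.366) and −0.14 (adjusted p = 1). Without YTHDF2-NT 2 they were 0.42 (adjusted p = 0.0108) and −0.36 (adjusted p = 0.0232). ZC3H13 was then the single member called, in fits that called 1610 and 1585 genes, where the reported fit tested 16297. Without both libraries they were 0.31 (adjusted p = 0.0972) and −0.25 (adjusted p = 0.308), with a single YTHDF2-NT library left, assumed to vary like the other groups. Most of the difference lay on 1 shorter model, ZC3H13-202, which was looked at after its values were seen. It was at 58.8, 8.72 and 28.8 CPM for YTHDF2-NT, 14.9, 11.8 and 7.87 CPM for nuclease-NT, 6.11, 7.76 and 4.13 CPM for nuclease-SMARCA4 and 9.67, 7.0 and 11.8 CPM for YTHDF2-SMARCA4. The YTHDF2-NT libraries thus spread widely on this model, and 1 of them lay within the range of nuclease-NT. The main model ZC3H13-201 was at 134.6, 135.7 and 140.3 CPM for YTHDF2-NT against 113.5, 133.3 and 133.9 CPM for nuclease-NT. ZC3H13-202 (6412 bases) encodes 4692 coding bases against 5004 in ZC3H13-201 (8018 bases). Its log2 fold change was 1.48 (SE 0.57, adjusted p = 0.936) for YTHDF2 over the nuclease with the NT guide. Between the guides in YTHDF2 cells it was −1.76 (SE 0.575, adjusted p = 1).

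CBLL1, also called HAKAI, an E3 ubiquitin ligase that associates with the complex (ENSG00000105879.11, chromosome 7, 107743697 to 107761667, plus strand), was the most variable of the 10 (coefficient of variation 15.1%). It was at 43.8, 50.5 and 54.4 CPM for nuclease-NT and 45.2, 38.1 and 46.2 CPM for nuclease-SMARCA4. In YTHDF2-NT it was at 34.2, 61.4 and 48.6 CPM, which are the lowest and the highest of all 12 libraries and 1 in between, and in YTHDF2-SMARCA4 at 51.3, 49.9 and 52.2 CPM. YTHDF2-SMARCA4 and nuclease-SMARCA4 did not overlap, and the log2 fold change between them was 0.25 (SE 0.161, adjusted p = 0.586), with an interval from −6.78% to 50.8%. The guide gave 0.09 (SE 0.16, adjusted p = 0.893) in YTHDF2 cells, which was −0.10 without YTHDF2-NT 1, 0.31 (adjusted p = 0.145) without YTHDF2-NT 2 and 0.07 without both.

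RBM15 and RBM15B, paralogous RNA-binding proteins that bring the complex to chosen transcripts, showed small fitted differences. RBM15 (ENSG00000162775.14, chromosome 1, 110338506 to 110346681, plus strand) had values of 28.4, 26.8 and 24.3 CPM for nuclease-NT, 21.9, 26.7 and 24.7 CPM for nuclease-SMARCA4, 23.7, 25.3 and 29.2 CPM for YTHDF2-NT and 25.4, 25.9 and 26.5 CPM for YTHDF2-SMARCA4. RBM15B (ENSG00000259956.1, chromosome 3, 51391268 to 51397908, plus strand) had values of 91.9, 104.5 and 100.7 CPM, 88.4, 95.9 and 92.2 CPM, 102.8, 96.1 and 100.6 CPM, and 100.8, 87.5 and 88.4 CPM in the same group order. All groups overlapped for both genes. The log2 fold changes for the guide were −0.12 (SE 0.105) and −0.01 (SE 0.104) for RBM15, and −0.10 (SE 0.0773) and −0.12 (SE 0.077) for RBM15B, with the nuclease and with YTHDF2. RBM15B shares 1268 of its stretches of 31 bases with DCAF1, a gene on the opposite strand, so its counts may include reads of that gene. DCAF1 was at 62.8, 59.4, 61.3 and 61.1 CPM in the 4 groups.

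FTO, the eraser named for its link to fat mass, also acts on the related cap mark m6Am (ENSG00000140718.20, chromosome 16, 53701692 to 54158512, plus strand). FTO was at 63.5, 66.8 and 65.2 CPM for nuclease-NT and at 64.2, 60.4 and 65.9 CPM for nuclease-SMARCA4. It was at 45.0, 73.2 and 61.0 CPM for YTHDF2-NT and at 65.6, 61.8 and 65.1 CPM for YTHDF2-SMARCA4. As for CBLL1, YTHDF2-NT 1 and YTHDF2-NT 2 held the lowest and highest values of the study, and the other 10 libraries lay between 60.4 and 66.8 CPM. The log2 fold changes for the guide were −0.04 (SE 0.128, adjusted p = 0.941) with the nuclease and 0.10 (SE 0.128, adjusted p = 0.842) with YTHDF2. The second was −0.06 without YTHDF2-NT 1, 0.28 (adjusted p = 0.0923) without YTHDF2-NT 2 and 0.07 without both.

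ALKBH5, the eraser that acts on m6A in the nucleus (ENSG00000091542.8, chromosome 17, 18183078 to 18209954, plus strand), stood at 209.1, 208.1 and 203.7 CPM for nuclease-NT and at 230.8, 236.4 and 211.1 CPM for nuclease-SMARCA4, without overlap. It was at 215.9, 185.0 and 213.3 CPM for YTHDF2-NT and at 224.7, 193.0 and 190.2 CPM for YTHDF2-SMARCA4, with overlap. The log2 fold change for the guide was 0.13 (SE 0.0832, adjusted p = 0.604) with the nuclease, an interval from −3.53% to 23.7%. With YTHDF2 it was −0.02 (SE 0.0832, adjusted p = 0.967), and the difference between these effects was −0.14 (SE 0.118, adjusted p = 0.653).

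**Figure D3:**
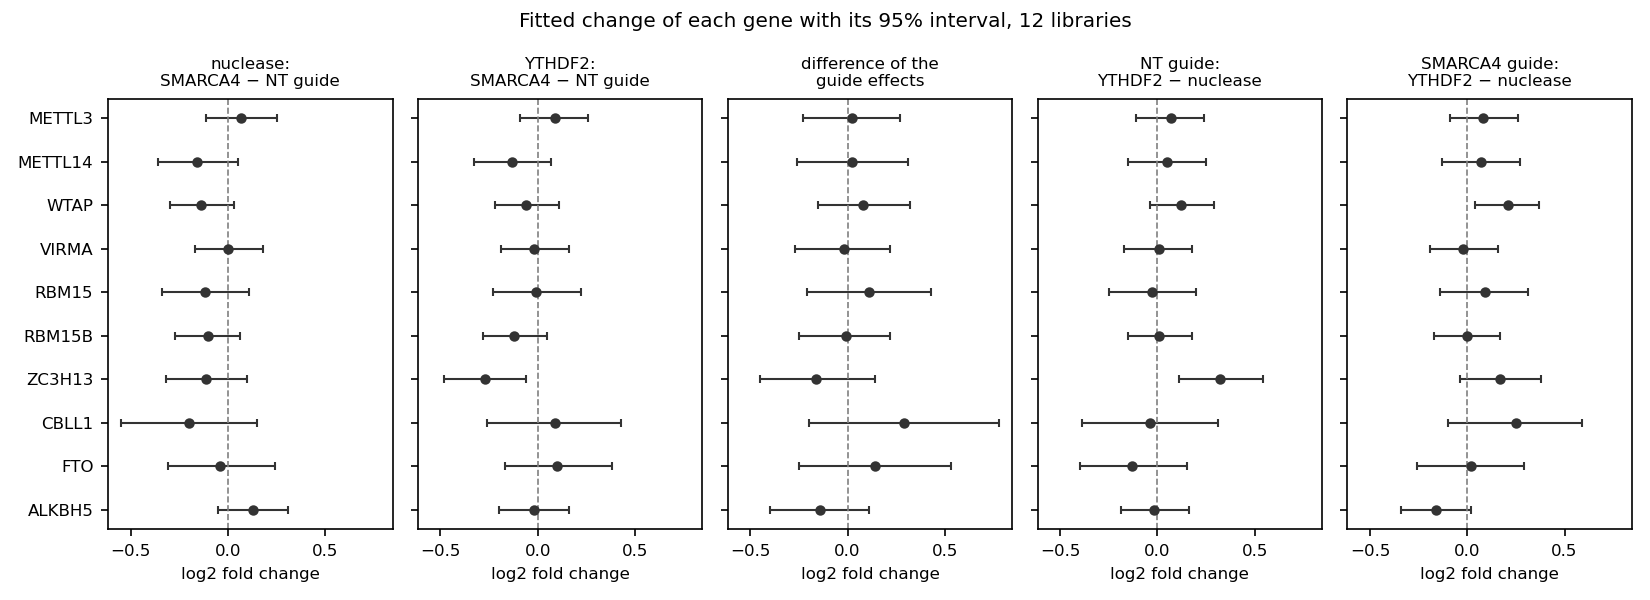
Fitted log2 fold change of each gene (points) with its 95% interval (bars) in the 5 comparisons, from the model of 12 libraries. All intervals include 0 except those of ZC3H13 for the guide in YTHDF2 cells (−0.27) and for YTHDF2 over the nuclease with the NT guide (0.32), and of WTAP for YTHDF2 over the nuclease with the SMARCA4 guide (0.21). None passed the test over all genes.

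Set against all genes tested, which were not matched to them for level, the 10 showed differences of ordinary or smaller size. For the SMARCA4 over the NT guide with the nuclease, 3 had a positive and 7 a negative fitted value, with a median of −0.11 and a median size of 0.11 against 0.14 over the 16297 genes. In that comparison 0 of 10 were called by edgeR, where 0.00614% of genes were, and 0 had an unadjusted p below 0.05, where 10.9% did. With YTHDF2 the guide gave 3 positive and 7 negative values and a median size of 0.09 against 0.13. Here 0 of 10 and 0.0% of all genes were called, 1 of 10 had an unadjusted p below 0.05 (6.82% of genes), and 1 of 10, ZC3H13, showed no overlap (9.27%). The difference of the guide effects ran from −0.16 for ZC3H13 to 0.29 for CBLL1, with a median size of 0.10 against 0.21. It was called for 0 of 10 and for 0.0% of genes, with 0 of 10 at an unadjusted p below 0.05 (11.1% of genes). Without YTHDF2-NT 1, without YTHDF2-NT 2 and without both, the difference was −0.03, −0.25 and −0.14 for ZC3H13. For CBLL1 it was 0.09, 0.5 and 0.27 in the same order.

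Between the effectors the picture was alike. With the NT guide 0 of 10 were called, where 0.0491% of genes were. 1 of 10 had an unadjusted p below 0.05 (10.9% of genes) and 1 of 10 showed no overlap (12.8%), both times ZC3H13, and the median size was 0.04 against 0.14. With the SMARCA4 guide 0 of 10 were called (0.00614% of genes), 1 of 10 had an unadjusted p below 0.05 (11.5%), and 3 of 10 showed no overlap, all higher with YTHDF2 (WTAP, ZC3H13 and CBLL1), where 13.4% of genes were higher without overlap and 26.7% in either direction. The median size was 0.09 against 0.14. DESeq2 called 0 of 10 in each comparison too. It called 142 and 3 genes between the guides with the nuclease and with YTHDF2, and 38 for the difference of these effects. Between the effectors it called 93 with the NT and 102 with the SMARCA4 guide. In the fits restricted to the libraries compared, which called 550 genes between the guides with the nuclease and 660 between the effectors with the SMARCA4 guide, 0 of 10 were called. The intervals of CBLL1 were the widest between the guides, from −31.6% to 11% with the nuclease and from −16.3% to 35.2% with YTHDF2.

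The transcript models gave a finer view, in which the catalytic parts of the writer and erasers were covered unevenly. Of the 81 models 49 passed the filter and 10 had 0 counts in all libraries. 24 held at least 10% of their gene's TPM. By edgeR 0 of the 49 were called, where 0.00202%, 0.00606%, 0.00606%, 0.00404% and 0.00808% of the 49518 models were for the nuclease guide effect, the YTHDF2 guide effect, their difference and the effectors with the NT and the SMARCA4 guide. At an unadjusted p below 0.05 were 1, 3, 2, 3 and 3 of the 49, against 4.72%, 4.33%, 5.11%, 5.17% and 4.44% of all models. The smallest adjusted p of the 49 was 0.936.

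METTL3-201, the single nearly complete METTL3 model (1740 coding bases), held 36.4% of the gene's TPM. METTL3-208, annotated as a target of nonsense-mediated decay and lacking the DPPW codons shown above, held 28.7%, and METTL3-212, a retained intron model that contains them, 20.6%. Models with the DPPW codons made up 63.5% of METTL3 TPM together. METTL3-201 was at 18.1, 11.6 and 13.8 TPM for nuclease-NT and at 21.0, 19.5 and 17.2 TPM for nuclease-SMARCA4. It was at 4.83, 17.2 and 10.5 TPM for YTHDF2-NT, the widest spread, and at 16.6, 16.5 and 18.1 TPM for YTHDF2-SMARCA4. As a share of METTL3 it was 34.1% ± 5.81 in nuclease-NT and 47.4% ± 6.61 in nuclease-SMARCA4 (SD, n = 3), which did not overlap. The exact permutation test gave p = 0.1, the smallest that 3 against 3 can give, and an adjusted p of 0.613 over the 92 shares compared. In this comparison 3 of 23 member shares did not overlap, against 10.2% of the 32472 shares of models that hold at least 10% of their gene's TPM. It was 4 of 23 (9.46%) between the guides with YTHDF2, 5 of 23 (9.12%) between the effectors with the NT guide and 3 of 23 (10.1%) with the SMARCA4 guide. The log2 fold change of its level was 0.53 (SE 0.308, adjusted p = 1).

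**Figure D4:**
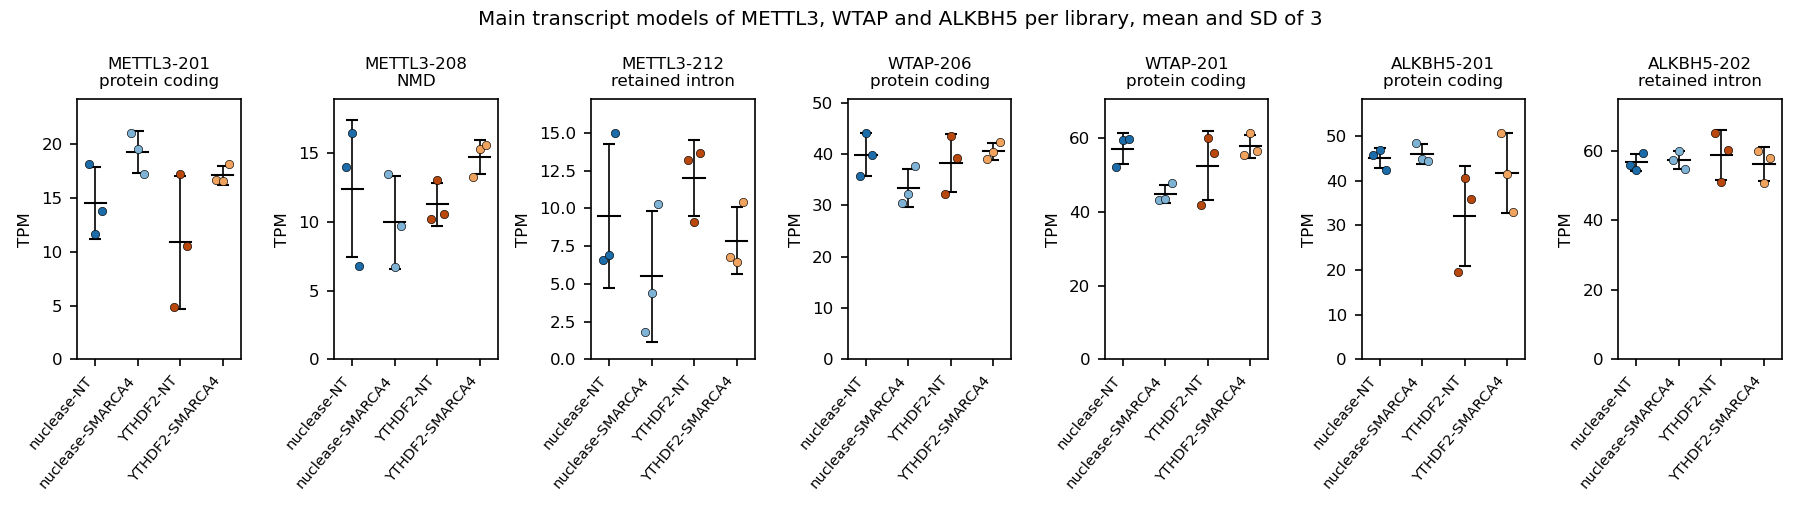
Level in TPM (linear axes from 0) of the leading transcript models of METTL3, WTAP and ALKBH5, 1 point per library with the mean and SD of 3. METTL3-201 and ALKBH5-201 are lowest in YTHDF2-NT 1 (4.83 and 19.5 TPM), and WTAP-201 is lower in all nuclease-SMARCA4 libraries (43.1 to 47.7 TPM) than in nuclease-NT (52.1 to 59.7 TPM). How many of all models separate in this way was not counted.

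WTAP signal was split between a full and a short reading frame. WTAP-206, with 1188 coding bases, held 36.4% of WTAP TPM, and WTAP-201, which stops after 453 coding bases where it reads past the splice site shown above, held 50.8%. Of the 2079 stretches of 31 bases in WTAP-206, 30 are in no other WTAP model, against 248 of 1592 in WTAP-201. WTAP-206 was at 35.7, 44.1 and 39.7 TPM for nuclease-NT, 30.4, 32.2 and 37.6 TPM for nuclease-SMARCA4, 32.2, 43.4 and 39.3 TPM for YTHDF2-NT and 39.0, 40.3 and 42.3 TPM for YTHDF2-SMARCA4. WTAP-201 was at 52.1, 59.3 and 59.7 TPM, 43.1, 43.5 and 47.7 TPM, 41.8, 59.8 and 55.8 TPM, and 55.3, 61.3 and 56.3 TPM in the same order. The short model was lower in every nuclease-SMARCA4 library than in any nuclease-NT or YTHDF2-SMARCA4 library. How many of all models separate in this way was not counted. Of the genes tested, 25.1% and 26.7% did not overlap in CPM in these 2 comparisons, in either direction. The log2 fold change of WTAP-201 from counts was −0.22 (SE 0.0808, unadjusted p = 0.0231, adjusted p = 1) for the guide with the nuclease and 0.29 (SE 0.0807, unadjusted p = 0.00497, adjusted p = 1) for YTHDF2 over the nuclease with the SMARCA4 guide. The share of WTAP-201 hardly differed, at 51.9% ± 1.37, 49.5% ± 1.76, 49.7% ± 3.1 and 51.6% ± 2.59 in the 4 groups (SD, n = 3). WTAP also shares 350 stretches of 31 bases with SOD2 on the opposite strand, which was at 132.1, 134.0, 134.8 and 125.8 CPM.

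ALKBH5 was divided between its only complete model and a model without the active site. ALKBH5-201 (1182 coding bases, with the HxD codons) held 41.5% of the TPM and the retained intron model ALKBH5-202, which lacks them, 57.7%. ALKBH5-201 was at 45.8, 46.9 and 42.5 TPM for nuclease-NT, 48.5, 44.9 and 44.3 TPM for nuclease-SMARCA4, 19.5, 40.7 and 36.0 TPM for YTHDF2-NT and 50.7, 41.5 and 33.0 TPM for YTHDF2-SMARCA4. ALKBH5-202 was at 56.1, 54.5 and 59.5 TPM, 57.5, 59.9 and 54.8 TPM, 65.2, 51.0 and 60.4 TPM, and 60.1, 50.7 and 57.9 TPM in the same order. The complete model was lower in all YTHDF2-NT libraries than in nuclease-NT, most in YTHDF2-NT 1, and the fit gave −0.35 on the log2 scale (SE 0.182, unadjusted p = 0.0818, adjusted p = 0.936). Between these groups 12.8% of the genes tested did not overlap in CPM, and the share among all models was not counted.

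FTO was mostly counted on models that do not encode the catalytic motif. FTO-201, a 3 exon model with 387 coding bases, held 47.1% of the TPM and 64.5% of the counts, and it lacks the HxD codons, as does the decay model FTO-205 with 12.2% of the TPM. The decay model FTO-220, with 15.1%, contains the HxD codons. Of the 2769 stretches of 31 bases in FTO-201, 44 are in no other FTO model, and FTO-205 has 0 of its own. The shares of these 2 models are thus weakly determined. Models with the HxD codons held 24.9% of FTO TPM (18.9% to 30.6% per library), and the 2 models with at least 90% of the longest coding sequence held 0.237%.

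**Figure D5:**
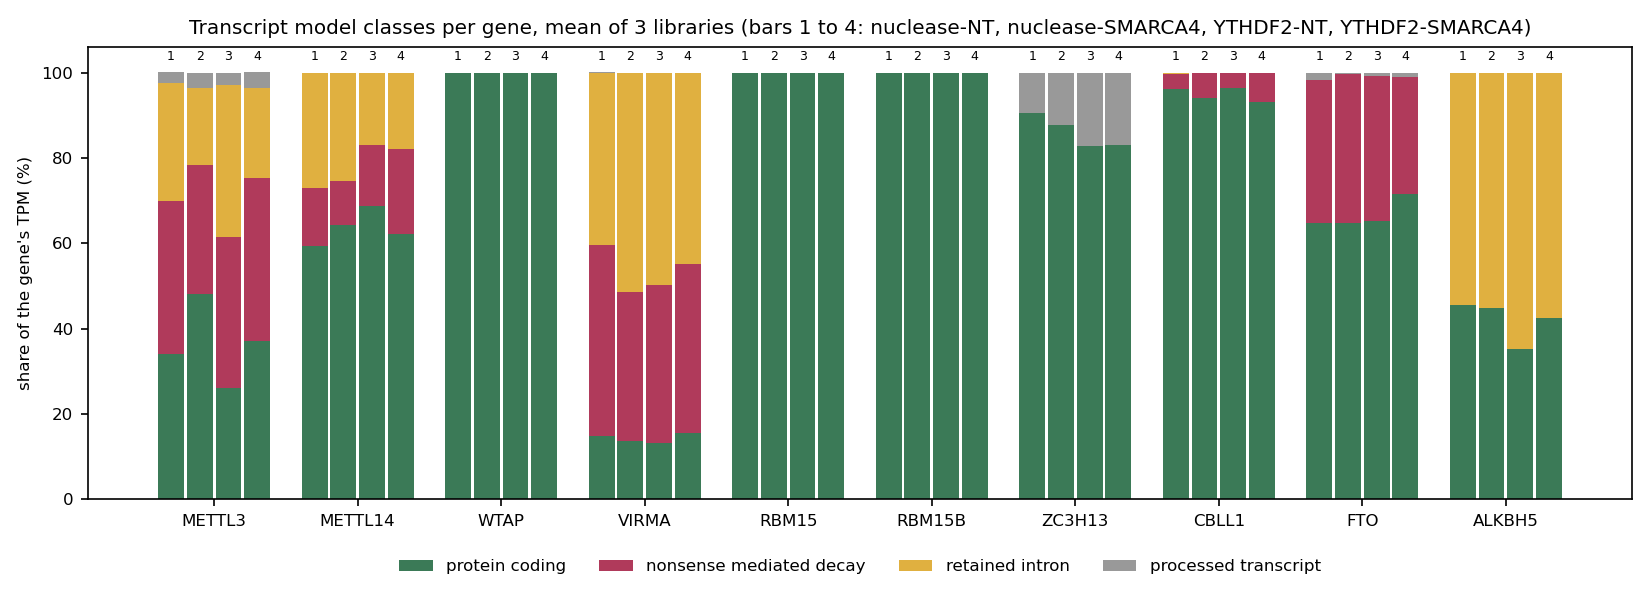
Share of each gene's TPM (%) by annotated class of transcript model, 4 bars per gene numbered 1 to 4 for the nuclease with the NT and SMARCA4 guide and then YTHDF2 with the same guides, each the mean of 3 libraries. METTL3, VIRMA and ALKBH5 carry under 50% on protein-coding models in every group, while WTAP, RBM15 and RBM15B are almost wholly protein-coding.

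The remaining genes differed in the same way. VIRMA-201 (5436 coding bases) held 12.1% of VIRMA TPM and 53.2% of its counts, while the short retained intron model VIRMA-206 (574 bases) held 46.3% and the decay model VIRMA-208 (609 bases) 27.5%. METTL14-203, with 410 coding bases, held 41.4% of METTL14 TPM, METTL14-202 22.7% and METTL14-205 15.3%. ZC3H13-201 held 70.4% and the non-coding ZC3H13-205 14.4%. CBLL1-205 held 82.3% and CBLL1-201 11%, and RBM15B has 1 model.

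RBM15 divided into RBM15-204 at 64.2% and RBM15-205 at 18.5%. RBM15-205 made up 37.6% ± 7.09 of RBM15 in YTHDF2-NT against 11.5% ± 7.16, 10.9% ± 14.0 and 16.1% ± 7.89 in nuclease-NT, nuclease-SMARCA4 and YTHDF2-SMARCA4 (SD, n = 3). It did not overlap nuclease-NT or YTHDF2-SMARCA4 (exact permutation p = 0.1, adjusted p = 0.613). RBM15-204 has 0 and RBM15-205 has 4 stretches of 31 bases that no other RBM15 model holds, so the division between them is weakly determined.

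Among 31 other genes of the m6A pathway (readers, other methyltransferases, methyl donor supply and AlkB relatives), all tested, 1 was called higher and 0 lower between the effectors with either guide, and 0 in the other 3 comparisons. The called gene was YTHDF2, which binds the mark. It was at 263.6 ± 17.9 and 240.8 ± 32.7 CPM with the nuclease (NT and SMARCA4 guide) and at 6619 ± 1307 and 5653 ± 723.5 CPM with the YTHDF2 effector (SD, n = 3). The rise (log2 4.65 with the NT and 4.55 with the SMARCA4 guide) accompanies the YTHDF2 effector, and the counts do not separate its mRNA from that of the cell's own gene. Over the 31 genes the median size of change was 0.10, 0.14, 0.19, 0.08 and 0.11 in the 5 comparisons, against 0.14, 0.13, 0.21, 0.14 and 0.14 over all genes. The direction was split, with 15, 14, 18, 22 and 19 of the 31 at a positive value.

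MAT2A, which makes the S-adenosylmethionine that METTL3 uses, was at 143.6 ± 22.0 CPM for nuclease-NT, 99.4 ± 8.98 in nuclease-SMARCA4, 138.5 ± 16 in YTHDF2-NT and 168.5 ± 16.3 in YTHDF2-SMARCA4 (SD, n = 3). Its log2 fold change was −0.53 (SE 0.121, adjusted p = 0.167) for the guide with the nuclease and 0.28 (SE 0.12, adjusted p = 0.703) with YTHDF2. The second was 0.19 without YTHDF2-NT 1, 0.34 without YTHDF2-NT 2 and 0.19 without both. The difference of the guide effects was 0.81 (SE 0.17, adjusted p = 0.222), and YTHDF2 over the nuclease with the SMARCA4 guide was 0.76 (SE 0.121, adjusted p = 0.0794). None of these passed. MAT2A was called without YTHDF2-NT 1, at −0.53 (adjusted p = 0.0473) for the guide with the nuclease and 0.76 (adjusted p = 0.00684) for YTHDF2 over the nuclease with the SMARCA4 guide. Without YTHDF2-NT 2 the first was not called (−0.53, adjusted p = 0.0688) and the second was (0.76, adjusted p = 0.024). Without both libraries they stayed at −0.53 and 0.76. Whether these 2 were called in that fit, with 1 YTHDF2-NT library left, is not given. These comparisons do not use the libraries left out except for the shared estimate of the spread. The difference of the guide effects, which does use them, was 0.72 (adjusted p = 0.238) without YTHDF2-NT 1, 0.87 (adjusted p = 0.0218) without YTHDF2-NT 2 and 0.73 (adjusted p = 0.0629) without both.

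The other genes among the 2 smallest p-values of a comparison were PCIF1, METTL5 and HNRNPA2B1. PCIF1, which writes m6Am at the cap, had means of 27.9, 33.6, 26.9 and 27.9 CPM in the 4 groups, and was at 0.27 on the log2 scale (SE 0.104, adjusted p = 0.369) for the guide with the nuclease. METTL5, a methyltransferase of ribosomal RNA, had means of 63.5, 72.3, 80.4 and 70.0 CPM and was at 0.34 (SE 0.0784, adjusted p = 0.23) for YTHDF2 over the nuclease with the NT guide. It was at −0.20 (SE 0.0777, adjusted p = 0.703) for the guide with YTHDF2 and −0.39 (SE 0.11, adjusted p = 0.356) for the difference of the guide effects. Leaving out YTHDF2-NT 1 gave −0.12 and −0.31 for these 2, neither called. Leaving out YTHDF2-NT 2 gave −0.25 (adjusted p = 0.0458) and −0.44 (adjusted p = 0.0254), both called, and leaving out both gave −0.15 and −0.35. HNRNPA2B1, a nuclear RNA-binding protein described as a reader of the mark, had means of 1930, 1932, 2211 and 1885 CPM and was at −0.23 (SE 0.0676, adjusted p = 0.703) for the guide with YTHDF2. Without YTHDF2-NT 1 the value of METTL5 between the effectors with the NT guide was 0.26 (adjusted p = 0.223) and that of HNRNPA2B1 −0.17, neither called. Without YTHDF2-NT 2 they were 0.39 (adjusted p = 0.0116) and −0.27 (adjusted p = 0.0236), both called, and without both libraries 0.30 (adjusted p = 0.115) and −0.21 (adjusted p = 0.271).

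Across the 12 libraries the 10 genes did not move as 1 block. Of their 45 pairwise Pearson correlations of log2 CPM, 26 were positive, with a median of 0.09 and a range from −0.76 (METTL3 with RBM15B) to 0.84 (CBLL1 with FTO). WTAP and ZC3H13 were at 0.76 and ZC3H13 and FTO at −0.69. These values come from 12 libraries that share their groups and length trends, and CBLL1 and FTO have both their extremes in YTHDF2-NT 1 and YTHDF2-NT 2, while ZC3H13 has its highest value in YTHDF2-NT 1. Among 8944 genes, those most like ZC3H13 were EIF5B and UBE2G2 (both 0.98), those most like FTO CTNND1 and MEX3C (both 0.97), and those most like CBLL1 CCNJ (0.97) and UBP1 (0.96). For the rest, the 2 nearest genes were PPT1 (0.84) and TMEM59 (0.82) for METTL3, GOLGA3 (0.82) and NOM1 (0.80) for METTL14, RBM22 (0.95) and PAK1IP1 (0.94) for WTAP, and HNRNPLL (0.94) and DYNC1H1 (0.91) for VIRMA. They were ZSCAN2 and ARHGAP1 (both 0.86) for RBM15, COX20 (0.89) and SUPT5H (0.88) for RBM15B, and LONP1 (0.93) and HAUS4 (0.90) for ALKBH5.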

How the data were processed

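Per the labels' protocols, RNeasy Mini RNA was enriched for mRNA and made into libraries by KAPA mRNA HyperPrep. The authors deposited, per library, an estimated count, an effective length and a TPM for each transcript model. The submitters' processing notes name kallisto, sleuth and hg38; versions, annotation release and strand setting are not given in the sources used here. Per the file headers, the deposited TPM stands beside the length, effective length and estimated count of each model, and it keeps no depth. All 81 models of the 10 genes match GENCODE release 29 by identifier and length.

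Estimated counts were summed per gene and rounded. The quasi-likelihood test of edgeR 4.0.16 (R 4.3.3) was fitted to 16297 genes, and likewise to 49518 models, using TMM, filterByExpr and 1 mean per group over 12 libraries (8 residual degrees of freedom, biological coefficient of variation 11.4%). Calls are two-sided and need a p below 0.05 after Benjamini-Hochberg adjustment across every gene or model tested. CPM uses TMM-adjusted totals, and logarithms for correlations used a prior count of 2. Shares of models were compared by exact permutation, two-sided. DESeq2 1.42.0 and other settings were alternatives.

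All 10 members are named, their models from 10% of TPM, pathway genes that were called or had the 2 smallest p-values in a comparison, and the 2 genes most alike in pattern among protein-coding genes of at least 10 CPM. Members and lists were chosen with earlier results of these data known.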

Additional observations from a re-analysis of the deposited data

How the results depend on the processing

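Leaving out YTHDF2-NT 1 and 2 together, the sum over nearly complete models and the left-out values of pathway genes were chosen after seeing the data. In the order nuclease guide effect, YTHDF2 guide effect, their difference, effectors with the NT guide and effectors with the SMARCA4 guide, the reported fit called 1, 0, 0, 8 and 1 genes. DESeq2 called 142, 3, 38, 93 and 102, and edgeR with no filter on low counts 333, 214, 493, 360 and 296. Fits of only the libraries compared called 550 for the nuclease guide effect and 660 for the effectors with the SMARCA4 guide, with biological coefficients of variation of 6.76% in both. Length-scaled TPM counts gave 0 genes for the nuclease guide effect and 1 for the effectors with the NT guide. With the length trend removed, the nuclease guide effect, the difference and both effector comparisons gave 10, 3, 14 and 10 genes. Protein-coding models alone gave 0 for the nuclease guide effect and for both effector comparisons. Without YTHDF2-NT 1 and 2 these 4 comparisons gave 706, 121, 32 and 714. Members called stayed at 0 in all of these. Why the counts differ was not tested.

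Replicate numbers did not pair the samples: correlations of same-numbered deviations ran from −0.06 to 0.06, and 1 of 12 libraries correlated best with its own number. With a replicate block 2 genes were called for the nuclease guide effect, 1 for the difference, and 4 and 3 between the effectors. Transcript models called with the block were 0, 0, 0, 1 and 1, against 1, 3, 3, 2 and 4 without it.

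Leaving out each library in turn, genes called ranged from 0 to 44, 0 to 1585, 0 to 1444, 1 to 1610 and 1 to 70. The highest counts came without YTHDF2-NT 2 for the middle 3 and without YTHDF2-NT 1 for the others. Transcript models called ranged from 0 to 0, 0 to 67, 0 to 44, 0 to 116 and 2 to 8. Members called ranged from 0 to 1 (ZC3H13, without YTHDF2-NT 2) for the YTHDF2 guide effect and for the effectors with the NT guide, and stayed at 0 in the rest.

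Of 1040 member log2 fold changes over 21 settings, 934 kept direction and side of the threshold, 2 passed it (ZC3H13 above) and 104 turned sign, 101 of them of genes whose reported value lay within its SE of 0. With protein-coding models alone these were VIRMA at −0.04, 0.12, 0.16, −0.12 and 0.04 in the 5 comparisons, ALKBH5 at 0.26 and 0.15 for the YTHDF2 guide effect and the difference, METTL14 at −0.01 for the difference, and METTL3 at −0.3 and −0.24 between the effectors. With length-scaled TPM they were METTL14 and RBM15 at 0.09 and 0.0086 for the YTHDF2 guide effect, RBM15B at 0.003 for the difference, METTL14, RBM15B and CBLL1 at −0.15, −0.0024 and 0.03 with the NT guide, and FTO at −0.05 with the SMARCA4 guide. With no filter they were RBM15 and ALKBH5 at 0.01 and 0.0021 for the YTHDF2 guide effect, VIRMA and RBM15B at −0.0076 and −0.0018 with the NT guide, and RBM15B at −0.0065 with the SMARCA4 guide. VIRMA with the NT guide was at −0.00044 by DESeq2 and −0.00055 with RLE scaling. With the length trend removed RBM15, CBLL1 and ALKBH5 were at 0.03, 0.0059 and 0.02 with the NT guide and RBM15B at −0.07 with the SMARCA4 guide, where it was at −0.0009 with only the libraries compared. Without YTHDF2-NT 1 and 2, VIRMA was at 0.00046 for the YTHDF2 guide effect, METTL3, METTL14 and RBM15 at −0.02, −0.03 and −0.05 for the difference, VIRMA, RBM15 and ALKBH5 at −0.01, 0.13 and 0.04 with the NT guide and RBM15B at −0.003 with the SMARCA4 guide. The cause was not tested.

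With each library left out in turn, signs turned for VIRMA in the nuclease guide effect (−0.03 to 0.04). For the YTHDF2 guide effect they turned for WTAP (−0.08 to 0.0087), VIRMA (−0.07 to 0.05), RBM15 (−0.07 to 0.08), CBLL1 (−0.1 to 0.31), FTO (−0.06 to 0.28) and ALKBH5 (−0.09 to 0.04). For the difference they turned for METTL3 (−0.04 to 0.08), METTL14 (−0.05 to 0.1), VIRMA (−0.08 to 0.05), RBM15B (−0.07 to 0.05) and FTO (−0.02 to 0.32). With the NT guide they turned for METTL14 (−0.02 to 0.12), VIRMA (−0.06 to 0.06), RBM15 (−0.12 to 0.04), RBM15B (−0.05 to 0.04), CBLL1 (−0.26 to 0.15), FTO (−0.3 to 0.04) and ALKBH5 (−0.05 to 0.04), and with the SMARCA4 guide for VIRMA (−0.08 to 0.03), RBM15B (−0.07 to 0.04) and FTO (−0.02 to 0.04). Of the levels per gene and group, 22 of 40 moved by over 1 SD when only protein-coding models were summed, and 66 of 96 model shares did when taken from counts.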
